A study of Mus musculus with 9 samples.

Results

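In mouse liver RNA, 8 of the 24008 listed genes were followed library by library: Xlr3a, Sprr1a, Sybu, Gipc2 and Nipal1, which were highest in F4MKO livers, and Tiam2, Gm3734 and AW549542, which were lowest there. They were chosen because they changed by a large amount in F4MKO livers and lacked that change in F4MKO+FSTL1 livers, so the differences of these genes between the groups are descriptions and carry no test. All mice were fed the NASH diet, high in fat and carbohydrate, and each group had 3 livers with 1 library each. Flox livers came from control mice, labelled WT, that the study's methods describe as injected with AAV-GFP in the gastrocnemius muscle. F4MKO mice lacked IRF4 in skeletal muscle through a Myl-Cre driver on a C57BL/6J background and also received AAV-GFP, and F4MKO+FSTL1 mice carried the same deletion and received AAV8 with FSTL1 under the muscle creatine kinase (MCK) promoter. The virus was injected after 24 weeks of diet by the study's account of its design and after 12 weeks by its section on the virus, and livers were taken 4 weeks later. The labels give neither the sex nor the age of these animals.

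IRF4 is a transcription factor of the interferon regulatory family, and FSTL1 is a secreted glycoprotein that skeletal muscle releases into the blood. The deletion and the vector were both aimed at skeletal muscle, and RNA was read in liver. The genes described here have little in common by function. They include a cornified envelope precursor of stratified epithelia, adaptors of vesicle and receptor traffic, a magnesium transporter of the NIPA family, an activator of the GTPase Rac and 2 long non-coding RNAs.

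The libraries held 20656976 to 24322984 gene counts each, and 14379 genes had enough counts to be tested, all 8 members included. Liver Irf4 had 92 to 132 counts in 8 libraries and 10 counts in F4MKO+FSTL1 replicate 1. Liver Fstl1 had 138 to 186 counts in Flox, 234 to 456 in F4MKO and 67 to 114 in F4MKO+FSTL1 libraries. Since deletion and vector were both directed to muscle, these liver counts do not check the labels. The summed level of 10 hepatocyte markers was 76200 to 113000 CPM (the read count scaled to a common library size) in the 9 libraries, and F4MKO replicate 1 was the lowest.

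Xlr3a, of the X-linked lymphocyte-regulated family of nuclear proteins, went from near silence to a clear signal. Its counts were 10, 6 and 11 in Flox replicates 1 to 3, then 148, 75 and 65 in F4MKO, and 3, 2 and 12 in F4MKO+FSTL1. The lowest F4MKO library was thus far above each of the other 6, and replicate 1 was the highest of its group. The mean level was 0.393 ± 0.129 CPM in Flox (SD, n = 3, as for all levels here), 3.66 ± 1.39 in F4MKO and 0.288 ± 0.295 in F4MKO+FSTL1. The log2 fold change was 3.21 (standard error 0.48) in F4MKO compared with Flox, and -3.69 (standard error 0.52) in F4MKO+FSTL1 compared with F4MKO. Without F4MKO+FSTL1 replicate 3, which had 12 of the group's 17 counts, the second value was -4.88. The gene lies on the minus strand of the X chromosome (mm10, chrX:73086293-73097095) among near-copies of itself. Of the 4349 stretches of 75 bases in its transcripts, 33.0% also occur in transcripts of 6 other genes of the family, so the counts of Xlr3a may hold reads of its relatives.

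Sprr1a encodes small proline-rich protein 1A, which transglutaminases link into the cornified envelope of stratified epithelia and which is also known as a gene switched on in injured neurons. Its counts were 7, 14 and 10 in Flox, 159, 65 and 53 in F4MKO, and 10, 5 and 5 in F4MKO+FSTL1 libraries. The F4MKO libraries again stood above the other 6 without overlap, and replicate 1 was again the highest. Mean levels were 0.443 ± 0.131, 3.49 ± 1.88 and 0.323 ± 0.125 CPM in Flox, F4MKO and F4MKO+FSTL1. The log2 fold change was 2.96 (standard error 0.43) in F4MKO compared with Flox and -3.41 (standard error 0.46) in F4MKO+FSTL1 compared with F4MKO. Without F4MKO replicate 1 these values were 2.43 and -2.87.

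Promoters of 3 rising genes are shown, those for which a window was at hand, to set Sprr1a beside Xlr3a and Nipal1. Each is the 250 bases before the RefSeq start on the gene's own strand in GRCm38.p6, the assembly also called mm10, written 5′ to 3′. The window of Sprr1a is chr3:92485882-92486131 (minus strand), that of Xlr3a is chrX:73097096-73097345 (minus strand) and that of Nipal1 is chr5:72647546-72647795 (plus strand). Capitals mark the AP-1 site TGANTCA and the TATA box TATAAA.
Sprr1a: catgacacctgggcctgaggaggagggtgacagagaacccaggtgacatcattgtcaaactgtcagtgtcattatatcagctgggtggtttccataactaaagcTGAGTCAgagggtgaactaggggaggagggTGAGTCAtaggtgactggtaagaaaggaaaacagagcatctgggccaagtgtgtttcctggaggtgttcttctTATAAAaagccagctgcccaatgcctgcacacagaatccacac
Xlr3a: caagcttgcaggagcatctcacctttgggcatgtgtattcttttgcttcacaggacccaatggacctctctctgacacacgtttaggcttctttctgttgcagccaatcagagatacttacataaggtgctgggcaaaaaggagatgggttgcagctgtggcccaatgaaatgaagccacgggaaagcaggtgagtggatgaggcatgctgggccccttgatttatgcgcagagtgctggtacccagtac
Nipal1: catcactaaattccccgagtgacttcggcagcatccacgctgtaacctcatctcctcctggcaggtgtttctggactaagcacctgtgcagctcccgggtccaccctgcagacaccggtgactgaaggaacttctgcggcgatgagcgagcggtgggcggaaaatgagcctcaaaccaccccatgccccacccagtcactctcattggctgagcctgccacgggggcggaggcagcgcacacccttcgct
Both strands were searched for 4 motifs, the AP-1 site, the TATA box, the core of the interferon-stimulated response element (GAAA, then any 2 bases, then GAAA), to which interferon regulatory factors bind, and the E-box CACGTG. The Sprr1a window held 2 AP-1 sites, which begin 146 and 116 bases before the start, and a TATA box that begins 43 bases before it. Its matches do not overlap. Among 32851 promoter windows of the same length, 6.75% held an AP-1 site, 12.4% a TATA box, 2.98% the interferon element core and 6.02% the E-box. The windows of Xlr3a and Nipal1 and the 3 windows of Tiam2 held none of these letters. Those of Tiam2 begin at chr17:3396957, chr17:3482065 and chr17:3483240, inside the gene (chr17:3326313-3519397), so the bases before its outermost start were not searched. No window is reported for Sybu, Gipc2, Gm3734 and AW549542.

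Sybu encodes syntabulin, an adaptor that ties syntaxin-bearing vesicles and mitochondria to the motor kinesin-1. Counts were 5, 9 and 2 in Flox, 39, 43 and 30 in F4MKO, and 2, 0 and 2 in F4MKO+FSTL1 libraries. It had the fewest counts of the 8 genes in every group, and its F4MKO libraries did not overlap the other 6. All F4MKO+FSTL1 libraries were under a floor of 3 counts per library, so the mean F4MKO level, 1.46 ± 0.310 CPM, was at least 9.92-fold higher than theirs. Against Flox, at 0.227 ± 0.140 CPM, the log2 fold change was 2.64 (standard error 0.46). The gene spans chr15:44671856-44788070 on the minus strand and has 21 RefSeq transcripts, which gene-level counts do not separate.

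Gipc2 encodes a PDZ-domain protein of the GIPC family, whose members bind the tails of membrane receptors and couple them to myosin VI. It had 15, 8 and 11 counts in Flox, 93, 74 and 46 in F4MKO and 6, 5 and 6 in F4MKO+FSTL1 libraries. Here every F4MKO+FSTL1 library lay below every Flox library as well as below every F4MKO library. Levels were 0.495 ± 0.171, 2.74 ± 0.790 and 0.278 ± 0.0366 CPM. The log2 fold change was 2.47 (standard error 0.33) against Flox and -3.28 (standard error 0.36) in F4MKO+FSTL1 compared with F4MKO, the most precise of the rising genes in both. Gipc2 is on the minus strand of chr3:152093839-152165900.

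Nipal1 encodes a NIPA-like magnesium transporter and differed from the other rising genes. Its counts were 30, 38 and 122 in Flox, 99, 232 and 229 in F4MKO, and 12, 1 and 10 in F4MKO+FSTL1 libraries. Flox and F4MKO overlapped, since Flox replicate 3, at 5.41 CPM, was above F4MKO replicate 1, at 3.50 CPM. The mean of 7.45 ± 3.43 CPM in F4MKO was 2.69-fold that of Flox (2.77 ± 2.29 CPM), or 1.43 on the log2 scale (standard error 0.55). This value was 2.35 without Flox replicate 3. In F4MKO+FSTL1 livers, at 0.377 ± 0.286 CPM, the log2 fold change was -4.29 (standard error 0.72) compared with F4MKO. All F4MKO+FSTL1 libraries were also below all Flox libraries, by -2.86 on the log2 scale (standard error 0.76), or -1.93 without Flox replicate 3. Nipal1 is on the plus strand of chr5:72647796-72671078.

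**Figure D1:**
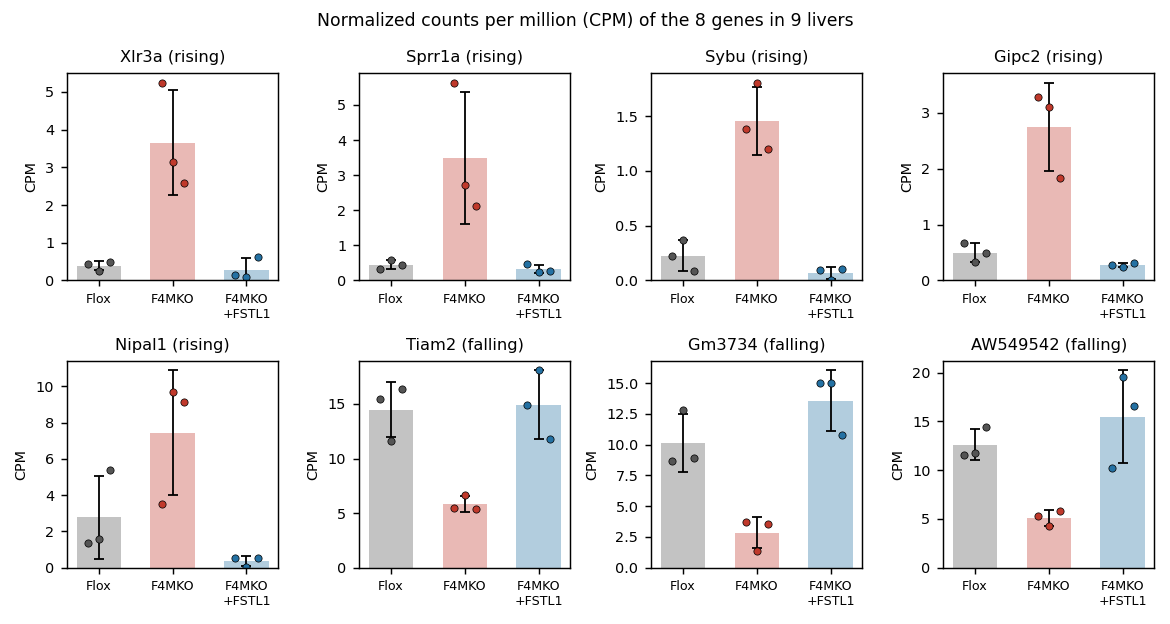
Normalized read count (CPM) of the 8 genes by group, with an axis from 0 in each panel. Points are the 3 libraries of a group, bars their mean and lines the SD, and F4MKO libraries do not overlap the other 6 in any panel but that of Nipal1.

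Tiam2 encodes a guanine nucleotide exchange factor that activates Rac, a GTPase of the actin cytoskeleton. Its counts were 346, 283 and 369 in Flox, 155, 160 and 134 in F4MKO, and 319, 376 and 225 in F4MKO+FSTL1 libraries. Every F4MKO library was below all of the other 6, and the other groups overlapped. Levels were 14.5 ± 2.53, 5.84 ± 0.745 and 14.9 ± 3.16 CPM, so F4MKO was lower than Flox by 2.47-fold. The log2 fold change was -1.31 (standard error 0.18) in F4MKO compared with Flox, 1.35 (standard error 0.18) in F4MKO+FSTL1 compared with F4MKO and 0.05 (standard error 0.18) in F4MKO+FSTL1 compared with Flox. Tiam2 spans chr17:3326313-3519397 on the plus strand, has 13 RefSeq transcripts and shares 148 bases with Tfb1m, which had 159 to 202 counts over the 9 libraries.

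Gm3734 is a long non-coding RNA gene on chromosome 18. It had 194, 313 and 201 counts in Flox, 104, 33 and 88 in F4MKO, and 321, 312 and 206 in F4MKO+FSTL1 libraries. F4MKO replicate 2 was the lowest by far, and the highest F4MKO library was still below all others. Levels were 10.1 ± 2.34 CPM in Flox, 2.86 ± 1.28 in F4MKO and 13.6 ± 2.45 in F4MKO+FSTL1. Among the falling genes its log2 fold changes were the largest, at -1.81 (standard error 0.30) in F4MKO compared with Flox and 2.24 (standard error 0.30) in F4MKO+FSTL1 compared with F4MKO.

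AW549542 is a long non-coding RNA gene at chr5:119570129-119580358. Its counts were 260, 288 and 325 in Flox, 151, 101 and 146 in F4MKO, and 219, 407 and 318 in F4MKO+FSTL1 libraries. All F4MKO libraries were below the other 6, and F4MKO+FSTL1 spread on both sides of Flox. Levels were 12.6 ± 1.58, 5.13 ± 0.819 and 15.5 ± 4.77 CPM. The log2 fold change was -1.29 (standard error 0.22) in F4MKO compared with Flox and 1.59 (standard error 0.22) in F4MKO+FSTL1 compared with F4MKO. The GENCODE annotation assigns this stretch to Tbx3os1, an antisense gene next to Tbx3, which has its own 3 to 13 counts per library in these data.

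**Figure D2:**
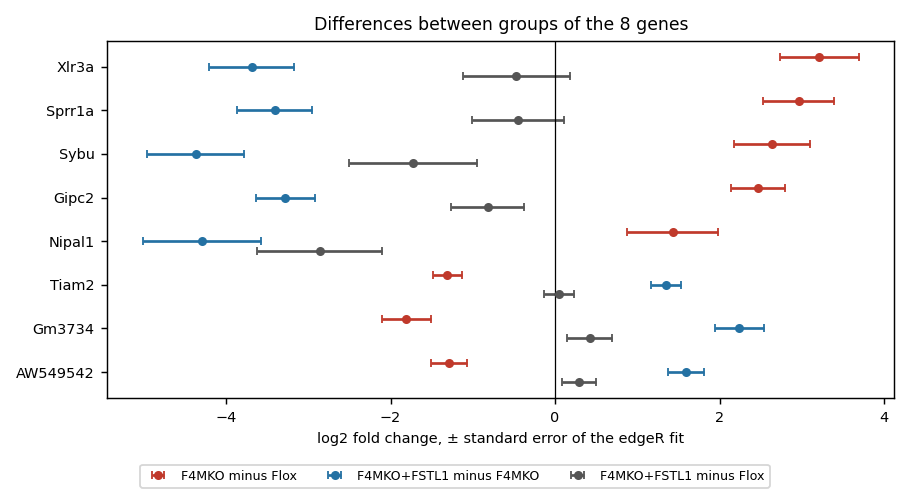
Log2 fold change of each gene in 3 comparisons, with the standard error of the edgeR fit. The first 2 comparisons have opposite signs for every gene, and the third lies nearest to 0 for Tiam2 (0.05) and farthest for Nipal1 (-2.86). The values of Sybu in F4MKO+FSTL1 are fitted to libraries under the floor of 3 counts.

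All but Nipal1 (7 of 8) were differentially expressed in F4MKO compared with Flox livers at a Benjamini-Hochberg adjusted p under 0.05 and a fold change above 1.5, as were 0.271% of all genes tested (39 genes; 0.202% higher and 0.0695% lower). All 8 met those limits in F4MKO+FSTL1 compared with F4MKO, where 14.4% of all genes did (3.21% higher and 11.2% lower). F4MKO libraries were above all of the other 6 for 4 of the 5 rising genes, as for 9.44% of all genes, and below them for all 3 falling genes, as for 7.14%. Since the same contrasts chose the genes, nothing is read from these counts. In F4MKO+FSTL1 compared with Flox, 1 of all genes tested was differentially expressed by edgeR (0.00695%), the cell-cycle gene Ccnb1, with 1924 genes at an unadjusted p under 0.05 and 284 called by DESeq2. Among genes higher in F4MKO than Flox livers and differentially expressed, Xlr3a, Sprr1a, Sybu and Gipc2 stood at ranks 2 to 5 of 29 by log2 fold change, between Mmp7 (3.54) and Pls1 (2.40). Among the 10 lower genes, Gm3734, Tiam2 and AW549542 stood at ranks 2, 4 and 5, with Slc2a5 (-2.33) before them, Slc22a28 (-1.49) between them and Cyp2c54 (-1.21) after them. All 29 higher and all 10 lower genes were also differentially expressed in the other direction in F4MKO+FSTL1 compared with F4MKO livers. That reversal was therefore not particular to the members, and both comparisons share the F4MKO libraries. The calls against Flox depend on the fit and on single libraries. With only the 6 libraries compared, 3 of the 8 were called (Xlr3a, Tiam2 and AW549542), and with no filter on low counts all 8 were. Without any of the 3 Flox libraries, or without F4MKO replicate 1, edgeR called 0 genes in that comparison, where 1426 to 2563 genes had an unadjusted p under 0.05, while the log2 fold changes of the members kept their sign.

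The mean of F4MKO+FSTL1 livers was below that of Flox livers for all 5 rising genes and above it for all 3 falling genes, though for Tiam2 the log2 fold change against Flox was -0.11 without F4MKO+FSTL1 replicate 2. The background is high: of all genes higher in F4MKO than in Flox, 61.2% had a F4MKO+FSTL1 mean below Flox, and of all genes lower in F4MKO, 60.8% had a mean above it. On the log2 CPM scale, the part of the F4MKO change lost in F4MKO+FSTL1 livers ran from 103% for Tiam2 to 128% for Gipc2. It was 270% for Nipal1, whose F4MKO+FSTL1 livers lay below Flox livers by a log2 fold change of -2.86 (standard error 0.76). No share is given for Sybu, whose F4MKO+FSTL1 libraries were under the floor. F4MKO+FSTL1 and Flox libraries overlapped for 6 of the 8 genes, and those of Gipc2 and Nipal1 did not, where 10.7% of all genes tested lay apart as lower and 7.44% as higher. The median log2 fold change of the rising genes was 2.64, -3.69 and -0.82 in F4MKO compared with Flox, F4MKO+FSTL1 compared with F4MKO and F4MKO+FSTL1 compared with Flox. With Sybu at its bound the last 2 medians were -3.41 and -0.63. That of the falling genes was -1.31, 1.59 and 0.29, and that of all genes was 0.00, 0.01 and 0.00. These comparisons share their libraries, so the values are not independent of each other.

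Levels can be compared between genes only per length, which was possible for the 6 genes with GENCODE exons. In Flox livers the order, in CPM per kilobase of exon, was Tiam2 (1.14), Nipal1 (0.63), Sprr1a (0.55), Gipc2 (0.129), Xlr3a (0.0972) and Sybu (0.0294). Neighbours in this order overlapped in their libraries except Sprr1a with Gipc2 and Xlr3a with Sybu. In F4MKO livers Sprr1a came first (4.33), followed by Nipal1 (1.7), Xlr3a (0.904), Gipc2 (0.714), Tiam2 (0.459) and Sybu (0.189). Sprr1a did not overlap Nipal1 there, nor Tiam2 Sybu, and the neighbours between them overlapped. In F4MKO+FSTL1 livers Tiam2 was again first (1.17), Sprr1a second (0.401), and Nipal1, Gipc2 and Xlr3a lay together between 0.0711 and 0.0858, above Sybu (0.00857).

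**Figure D3:**
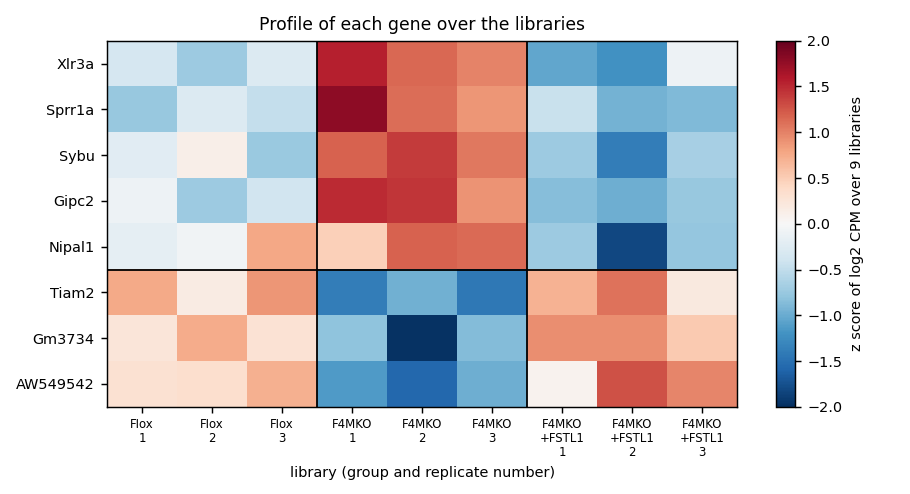
Profile of each gene over the 9 libraries, as the z score of log2 CPM within the gene (colour scale, red high and blue low). Rising genes are above the horizontal line and falling genes below it, and Nipal1 is the only rising gene with Flox replicate 3 above F4MKO replicate 1.

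The likeness of 2 profiles was measured as the root mean square difference between z scores of log2 CPM over the 9 libraries, where 0 is the same profile. Xlr3a, Sprr1a, Sybu and Gipc2 were 0.279 to 0.424 apart, closest for Gipc2 and Xlr3a, and Nipal1 was 0.588 to 0.718 from each of them. The falling genes were 0.436 to 0.560 apart. These distances describe genes chosen for a shared pattern. Over all tested genes outside the 8, the nearest to Xlr3a were the kinesin light chain Klc3 (0.171), Dapp1 (0.183) and Igsf11 (0.186). Sprr1a was nearest to the myosin Myo5a (0.137), the metalloprotease Adam8 (0.155) and the anion exchanger Slc4a3 (0.157). The nearest to Sybu were Lrif1 (0.198), Ccdc120 (0.215) and Klhl13 (0.227), and to Gipc2 they were Fam212b (0.185), Tm4sf4 (0.188) and Usp43 (0.21). Nipal1 was nearest to Dse (0.171), an epimerase of dermatan sulfate, and to the ABC transporters Abcg3 (0.203) and Abcd2 (0.208).

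Of the falling genes, Tiam2 was nearest to the ectonucleotidase Entpd8 (0.184), the mitochondrial ribosomal gene Mrpl49 (0.193) and Gm26588 (0.234). Gm3734 was nearest to C1qtnf3 (0.168) and to a pair of abundant hepatocyte genes, the organic anion transporter Slco1a1 (0.185) and the sulfotransferase Sult2a8 (0.196). Slco1a1 had mean levels of 240.1 CPM in Flox, 82.4 in F4MKO and 335 in F4MKO+FSTL1 livers, and Sult2a8 had 655, 249 and 964. AW549542 was nearest to Mkks (0.189), Dcps (0.21) and Nelfcd (0.213). With a smaller prior count of 0.5 in the log scale, 18 of the 24 nearest genes stayed among the nearest, and none of those of Sybu did.

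To see whether the relatives and partners of the 8 genes moved with them, 7 lists of 103 genes were written by family or pathway. Of these genes 67 had enough counts to be tested. The lists were written with earlier results of these data known, so their counts are descriptions. In F4MKO compared with Flox livers 0 of these 67 were differentially expressed by edgeR. Of the 67, 17 had an unadjusted p under 0.05 in that fit, a larger share than the 16.9% of all genes. DESeq2 called 3 of the listed genes, against 338 of all genes. Between F4MKO and F4MKO+FSTL1 17 fell and 2 rose in the latter, which is 28.4% against 14.4% of all genes, with a median log2 fold change of -0.19 over the 67 and 0.01 over all genes. Of the 17 that fell, 8 were in the list of Rac signalling genes. Counts for single lists stand against the same 11.2% of all genes that fell and 3.21% that rose. Without F4MKO replicate 1 the count was 11 in place of 19. Against Flox 0 of the 67 in F4MKO+FSTL1 were differentially expressed by edgeR. Of the 67, 13 had an unadjusted p under 0.05 in that fit, a larger share than the 13.4% of all genes. DESeq2 called 5 of the listed genes, against 284 of all genes.

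The close relatives of Xlr3a had few counts in most libraries. Xlr3b, the neighbouring copy of Xlr3a, had 6, 8 and 16 counts in Flox, 40, 16 and 6 in F4MKO, and 1, 4 and 3 in F4MKO+FSTL1 libraries. It fell in F4MKO+FSTL1 compared with F4MKO (log2 fold change -2.54, standard error 0.75; adjusted p = 0.0332, edgeR's quasi-likelihood fit, Benjamini-Hochberg), and its F4MKO libraries were spread over both Flox and higher levels, unlike those of Xlr3a. Because these copies share sequence, their counts cannot be fully told apart. Xlr3c had at most 3 counts in any library. Outside the naming rule and singled out after their values were seen, Xlr5b had 56 counts in F4MKO replicate 1 and 0 in the other 8 libraries, and Xlr4b had 28 counts there and at most 2 elsewhere. F4MKO replicate 1 was also the highest library of Xlr3a, with 148 counts. Sprr1b, the nearest relative of Sprr1a, had 0 counts in 7 libraries and 1 and 2 counts in F4MKO replicates 1 and 3.

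Among 22 cornified envelope genes 4 were tested, and 2 fell in F4MKO+FSTL1 compared with F4MKO. They were the plakins Ppl (log2 fold change -2.07, adjusted p = 9.41e-04 by edgeR) and Evpl (-1.74, adjusted p = 0.0136), which link desmosomes to keratin. The keratinocyte markers were low in all groups, at a summed 2.72 to 3.99 CPM over the 6 listed of 8, with 2, 2 and 4 of them at 0 in all Flox, all F4MKO and all F4MKO+FSTL1 libraries. Of the genes known with Sprr1a from nerve regeneration, 3 were tested and 2 fell in the same comparison, the stress-responsive transcription factor Atf3 (-2.13, adjusted p = 0.00152 by edgeR) and the growth cone protein Basp1 (-1.49, adjusted p = 0.0164 by edgeR). Atf3 had 95 to 101 counts in Flox, 178 to 455 in F4MKO and 38 to 59 in F4MKO+FSTL1 libraries, without overlap.

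Kinesin-1 genes around syntabulin moved in both directions in F4MKO+FSTL1 compared with F4MKO, among 15 tested. The light chain Klc3 fell (log2 fold change -1.66, adjusted p = 0.0167 by edgeR), as did the cargo adaptor Mapk8ip1 (-0.90, adjusted p = 0.005 by edgeR). The neuronal motor Kif5a rose (0.68, adjusted p = 0.0322 by edgeR). Snph, syntaphilin, had at most 3 counts in any library.

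The 10 GIPC genes and binding partners had log2 fold changes from -0.41 to 1.24 in F4MKO+FSTL1 compared with F4MKO. The values for Gipc1 and Gipc3, the closest relatives of Gipc2, were -0.39 (standard error 0.14) and 1.24 (standard error 0.47) on the log2 scale. Their adjusted p by edgeR was 0.0618 and 0.0837. Of 15 tested NIPA and magnesium transporter genes, 2 fell in that comparison, Nipal2 (-2.90, adjusted p = 0.00607 by edgeR) and Nipa1 (-1.36, adjusted p = 0.0393 by edgeR). Nipal2 had 7, 36 and 15 counts in Flox, 79, 33 and 34 in F4MKO, and 6, 3 and 6 in F4MKO+FSTL1 libraries, so that it was lowest in the group where Nipal1 was lowest. Nipal3 had a log2 fold change of -0.19 (standard error 0.16), and Nipal4 had at most 2 counts in any library.

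Rac signalling genes were set beside Tiam2. Of 18 tested genes of Rac signalling 8 fell in F4MKO+FSTL1 compared with F4MKO, where 11.2% of all genes did, the opposite direction to Tiam2. Those with the smallest adjusted p by edgeR were the cytokinesis regulators Ect2 (-2.20, adjusted p = 0.00187) and Racgap1 (-2.59, adjusted p = 0.00206) and the partners Dock2 (-1.21, adjusted p = 0.00197) and Elmo1 (-1.47, adjusted p = 0.00207), which activate Rac in migrating and engulfing cells. Tiam1, the paralog of Tiam2, had a log2 fold change of 0.04 (standard error 0.39). In the same samples all 8 cycling-cell markers fell, with a summed level of 16.8 to 32.2 CPM in Flox, 36.9 to 46 in F4MKO and 6.34 to 9.87 in F4MKO+FSTL1 libraries. Of 10 macrophage markers 8 fell, and the summed level of the 10 was 684 to 1050 CPM in Flox, 878 to 946 in F4MKO and 423 to 640 in F4MKO+FSTL1. Both sums were thus lower in every F4MKO+FSTL1 library than in every Flox library. The part of these markers in the changes of the Rac genes was not tested.

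**Figure D4:**
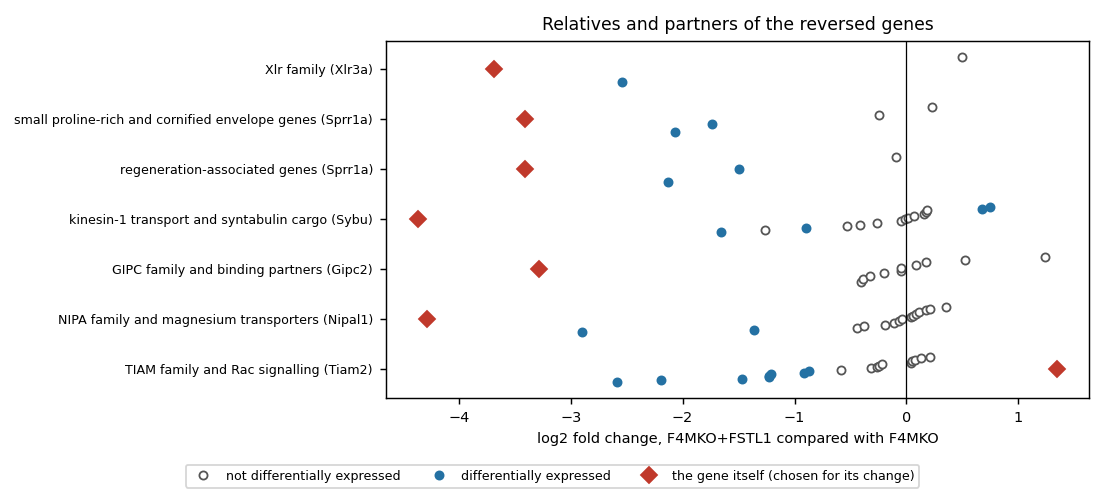
Log2 fold change in F4MKO+FSTL1 compared with F4MKO livers of the 67 tested relatives and partners, in rows by list, with the gene each list belongs to as a diamond. Filled circles are differentially expressed genes, of which 17 lie left of 0 and 2 lie right of it.

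Markers of bile duct cells were higher in the same livers as the rising genes. Of 11 cholangiocyte markers 8 were tested, and all 8 had a positive log2 fold change in F4MKO compared with Flox livers, with a median of 1.46. Of these 2 were differentially expressed by edgeR, Epcam (2.01, adjusted p = 0.036) and Spp1 (2.05, adjusted p = 0.0404). Against F4MKO 6 of the 8 fell in F4MKO+FSTL1. The summed level of all 11 was 52.1 to 92.7 CPM in Flox, 165 to 443 in F4MKO and 39.1 to 56.5 in F4MKO+FSTL1 libraries, and F4MKO replicate 1 was the highest, as it was for Xlr3a, Sprr1a and Gipc2 but not for Sybu or Nipal1. Most of this sum was Spp1 (osteopontin). The other 10 markers summed to 9.93 to 14.7, 21.6 to 46.1 and 9.22 to 12.3 CPM in the same order. No marker of this list was at 0 in all libraries of a group. Stellate cell markers ran from 433 to 509 CPM in Flox, 587 to 773 in F4MKO and 279 to 387 in F4MKO+FSTL1, and 7 of 10 fell in the last group compared with F4MKO. Endothelial markers lay between 246 and 383 CPM and lymphocyte markers between 3.5 and 10.3 CPM in all libraries. The highest library for stellate cell and cycling-cell markers was also F4MKO replicate 1, which led its group for macrophage markers as well. It was the lowest library for hepatocyte and endothelial markers. Skeletal muscle markers summed to at most 1.67 CPM and pancreatic acinar markers to at most 0.519 CPM. In whole pieces of liver, fewer cells of a type and less RNA per cell cannot be told apart, and the part of these cell types in the levels of the 8 genes was not tested.

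The genes nearest to the 8 on their chromosomes were read as well, the 5 nearest tested genes on each side, 77 in all. Many were distant. The farthest of these neighbours lay from 603.7 kb (for Gm3734) to 7252.0 kb (for Sybu) from the member. In F4MKO compared with Flox 1 neighbour, S100a11, was differentially expressed (adjusted p = 0.0404 by edgeR), where 0.271% of all genes were. Of the 77, 12 had an unadjusted p under 0.05 in that fit, where 16.9% of all genes did. No neighbour was called with only the 6 libraries compared. With a library left out, one was called only in the fit without F4MKO replicate 2. Between F4MKO and F4MKO+FSTL1 11 fell and 2 rose in the latter, which is 16.9% against 14.4% of all genes. This count was 7 without F4MKO+FSTL1 replicate 1 and also 7 without F4MKO+FSTL1 replicate 2. Against Flox 0 of the 77 in F4MKO+FSTL1 were differentially expressed by edgeR. Of the 77, 10 had an unadjusted p under 0.05 in that fit, where 13.4% of all genes did. DESeq2 called 3 of them, against 284 of all genes.

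These 13 neighbours lay around Xlr3a, Sprr1a, Gipc2, Nipal1, Gm3734 and AW549542. Around Xlr3a, beside Xlr3b, the matrix proteoglycan Bgn fell by 1.03 and the GABA receptor subunit Gabra3 fell by 0.96 on the log2 scale. Around Sprr1a, whose region also holds the S100 genes of calcium-binding proteins, S100a11 fell by 1.89 and S100a6 fell by 1.25, while C2cd4d rose by 0.89. S100a6 lay 1869.5 kb and C2cd4d 1876.6 kb from Sprr1a. S100a11, 1034.6 kb from Sprr1a, had levels of 35.3 ± 7.45, 70.7 ± 11.2 and 19.1 ± 2.85 CPM in Flox, F4MKO and F4MKO+FSTL1. Gipc2 had 4 such neighbours of 10. The prostaglandin receptor Ptgfr, the interferon-induced Ifi44 and Fam73a fell by 1.62, 1.30 and 0.93. Gm31121, 2433.4 kb from Gipc2, rose by 4.93, from 0.119 ± 0.173 to 4.05 ± 2.93 CPM. Near Nipal1 the protease Corin fell by 2.34. The 2 falling non-coding genes each had a neighbour that changed opposite to them in this comparison. Ticam2, an adaptor of Toll-like receptor 4, changed by -1.61 at 56.1 kb from Gm3734. The calcium-binding Tesc changed by -2.51 at 1508.3 kb from AW549542. Adjusted p-values of these 13 neighbours by edgeR ran from 3.56e-04 (S100a11) to 0.0403 (Ptgfr).

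**Figure D5:**
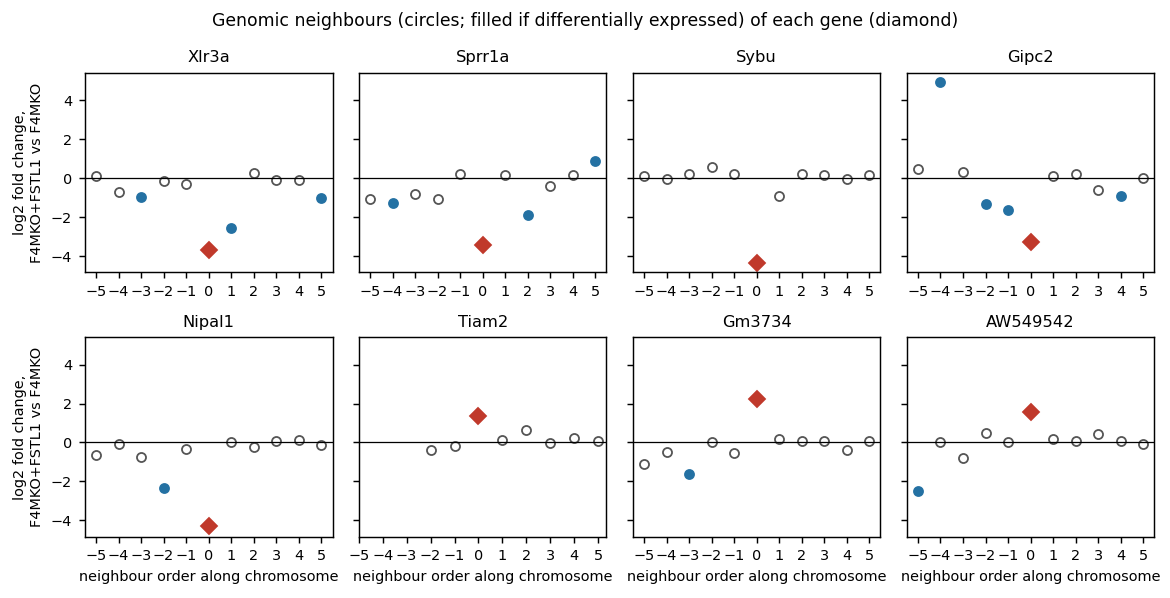
Log2 fold change in F4MKO+FSTL1 compared with F4MKO livers of the 5 nearest tested genes on each side of each gene (circles, filled where differentially expressed) by their order along the chromosome, with the gene itself as a diamond at 0. The diamond is farther from 0 than its neighbours in every panel but those of Gipc2 and AW549542; Tiam2 has 2 tested neighbours on its lower side.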

How the data were processed

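The authors sequenced 150-base paired-end reads of liver RNA from 9 mice on BGIseq500, and the submitters' processing notes name Trim Galore 0.6.7, HISAT2 2.2.1, featureCounts 2.0.1 and mm10. The authors deposited the counts per gene and library, without normalization. The annotation, use of strand and treatment of multiply mapped reads are not given in the sources used here. Totals ran from 20656976 to 24322984. In edgeR 4.0.16 (R 4.3.3), genes were kept by filterByExpr (minimum count 10, minimum total 15), normalized by TMM (factors 0.927 to 1.17) and fitted together by quasi-likelihood with a mean per group. A gene was differentially expressed at a Benjamini-Hochberg adjusted p under 0.05 over 14379 genes and a fold change above 1.5. Standard errors are the log2 fold change divided by the root of F, and a prior count of 2 was used for log2 CPM. The fit was tested on simulated data. P-values set the difference between groups against the spread between samples, 1 library per mouse. In the main fit that spread was estimated over all 9 libraries and moderated across genes.

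The 8 genes and all lists were chosen with earlier results of these data known. Named besides the 8 were their 3 nearest profiles each, differentially expressed listed relatives (up to 4 per list, by smallest adjusted p) with close paralogs, differentially expressed neighbours, genes next to the 8 in rank, and at most 2 markers per list. A listed gene that this rule names is not reported here. Of the tested genes, 13621 matched RefSeq (GRCm38.p6) by symbol and 442 by synonym, and 316 did not match. Exon lengths and shared 75-base stretches came from GENCODE vM21, and promoters from RefSeq. The alternatives were DESeq2 1.42.0, its size factors in edgeR, no filter, only the 6 libraries compared, the replicate number as a block, no fold change threshold, 10 neighbours per side, a prior count of 0.5, and each library left out in turn.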

Additional observations from a re-analysis of the deposited data

How the results depend on the processing

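Of 332 recomputed log2 fold changes of the 8 genes, 328 stayed within 1 SD of the reported value, 4 moved by more and 0 changed sign while differentially expressed. This SD is the spread of log2 CPM within groups, from 0.256 for Tiam2 to 1.07 for Nipal1. The limit is wide for Nipal1, whose move from 1.43 to 2.35 without Flox replicate 3 lies within it. Most libraries are shared between the fits. The count of differentially expressed genes in F4MKO compared with Flox was 39, against 338 with DESeq2, 478 with no filter on low counts, 11 with only the 6 libraries compared and 0 to 100 with a library left out. In F4MKO+FSTL1 compared with F4MKO it was 2070, and 1295 to 2216 with a library left out, lowest without F4MKO+FSTL1 replicate 2 and 1335 without F4MKO replicate 1. In F4MKO+FSTL1 compared with Flox it was 1, against 284 with DESeq2, 2 with DESeq2 size factors, 379 with no filter, 0 with 6 libraries and 0 to 101 with a library left out. Listed relatives numbered 0, 19 and 0 in the 3 comparisons, against 3, 18 and 5 with DESeq2, 5, 22 and 5 with no filter, and 0 to 1, 11 to 20 and 0 to 3 with a library left out. Neighbours numbered 1, 13 and 0, against 4, 11 and 3 with DESeq2, 4, 14 and 3 with no filter, 0 in the first comparison with 6 libraries, and 0 to 1, 7 to 14 and 0 to 1 with a library left out. With 10 neighbours per side 25 of 152 (16.4%) were called in F4MKO+FSTL1 compared with F4MKO. The cause of these shifts was not tested. Genes with a few counts per library, such as Sybu, limit how small a level can be measured.

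Same-numbered libraries came from different mice. Their deviations from the group means correlated across genes by 0.042 to 0.169, 0.092 to 0.304 and -0.099 to 0.206 in the 3 comparisons, so the numbers were not taken as a pairing. With the replicate block the counts of differentially expressed genes were 134, 2170 and 15, those of relatives 1, 20 and 0, and those of neighbours 2, 11 and 1, and the members called were 7, 8 and 0 of 8.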
